A study of Mus musculus with 6 samples.

Results

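The genes described here are the mouse innate sensors: the Toll-like receptors (TLRs), the NOD-like receptors (NLRs), the cytosolic sensors of RNA and DNA, and the adaptors and kinases closest to them. They were picked by symbol from a gene table of mouse kidney RNA sequencing, and 55 of its 22183 genes belonged. The table spelled 53 of these symbols as the rule did, and Tmem173 and Mb21d1 stood there as Sting1 and Cgas. The study compared kidneys of mice given a plasmid for Wnt1 (Wnt1, 3 libraries), a secreted ligand that activates beta-catenin signalling, with kidneys of mice given the empty vector pcDNA3 (control, 3 libraries). All 6 libraries carry a single batch label. The strain, sex, age, route and time of plasmid delivery, the cells that took up the plasmid, any injury procedure, and whether each library came from a separate animal are not stated in the labels. P-values therefore measure only the spread between these libraries, which may be technical.

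TLRs are membrane proteins that bind microbial lipids, proteins or nucleic acids at the cell surface or in endosomes, and pass the signal through the adaptors MyD88 and TRIF to NF-kappaB and interferon regulatory factors. NLRs sit in the cytosol. Some of them, with AIM2 and pyrin, build inflammasomes that activate caspase-1, whereas NOD1 and NOD2 bind fragments of bacterial cell wall and signal through RIPK2. RIG-I and MDA5 read viral RNA and signal through MAVS, and cGAS reads DNA and signals through STING. In kidney these sensors are carried by resident and infiltrating leukocytes and, for several of them, by tubule epithelium.

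Total counts per library were 27218091, 23656307 and 23585040 in Wnt1 kidneys and 24753191, 26072455 and 25824548 in control kidneys, and 3 counts corresponded to 0.0951 to 0.138 CPM, counts scaled to a common library size. Levels below are CPM after scaling by library total and a TMM factor (a correction for library composition), and log2 fold changes are Wnt1 over control. Wnt1 itself had 0, 1 and 0 counts in Wnt1 kidneys and 0 in each control kidney, so it does not check the labels. The proximal tubule markers marked the tissue as kidney, with summed FPKM (fragments scaled by transcript length and library total) of 5343 to 8920 in Wnt1 kidneys and 27502 to 35189 in control kidneys. A principal component holding 14.7% of the variance set the libraries numbered 3 of both groups apart from the others.

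Most of the sensors that could be tested were higher in Wnt1 kidneys, and 4 were lower. Of the 55 genes, 42 passed a filter on low counts and entered edgeR's quasi-likelihood test over 14432 genes, with Benjamini-Hochberg adjustment and calls at an adjusted p under 0.05. Among them 30 were called higher, against 22.4% of all tested genes, and 4 were called lower, against 18.7%. Calls in either direction came to 34 of 42 sensors (81.0%), against 41.1% of all tested genes. The median log2 fold change of the 42 was 1.63, beside 0.05 over all tested genes. After TMM scaling, 11 of the 42 lay under the filter's floor of 0.395 CPM in at least 1 control library and so passed through their Wnt1 values. Those 11 were Tlr5, Tlr6, Tlr8, Tlr11, Nlrp1a, Nlrp1b, Aim2, Mefv, Naip1, Naip6 and Cgas. All were called higher, a direction that the filter favours, so these calls are no separate evidence. The filter itself ran before TMM scaling, where Naip5 also lay under the floor, with 9 counts in control replicate 2 (0.399 CPM after scaling). Naip5 thus passed through its Wnt1 libraries too, but is counted among the other 31 here and below. Partner and marker lists were likewise split after TMM scaling. Among the other 31, Naip5 included, 19 were called higher, 4 lower and 8 neither, with a median of 1.09. Of all 13492 tested genes over the floor in every control library, 2612 (19.4%) were called higher and 2697 lower, with a median of 0.01. Levels in the 2 groups did not overlap for 37 of the 42 sensors, against 53.5% of all tested genes. Of these 37, 31 were higher in Wnt1 kidneys, against 28.2% of all tested genes, and 6 lower, against 25.3%. The 11 sensors under the floor are all among those higher. Without them, 26 of 31 sensors did not overlap, against 7033 of the 13492 tested genes over the floor in every control library.

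**Figure D1:**
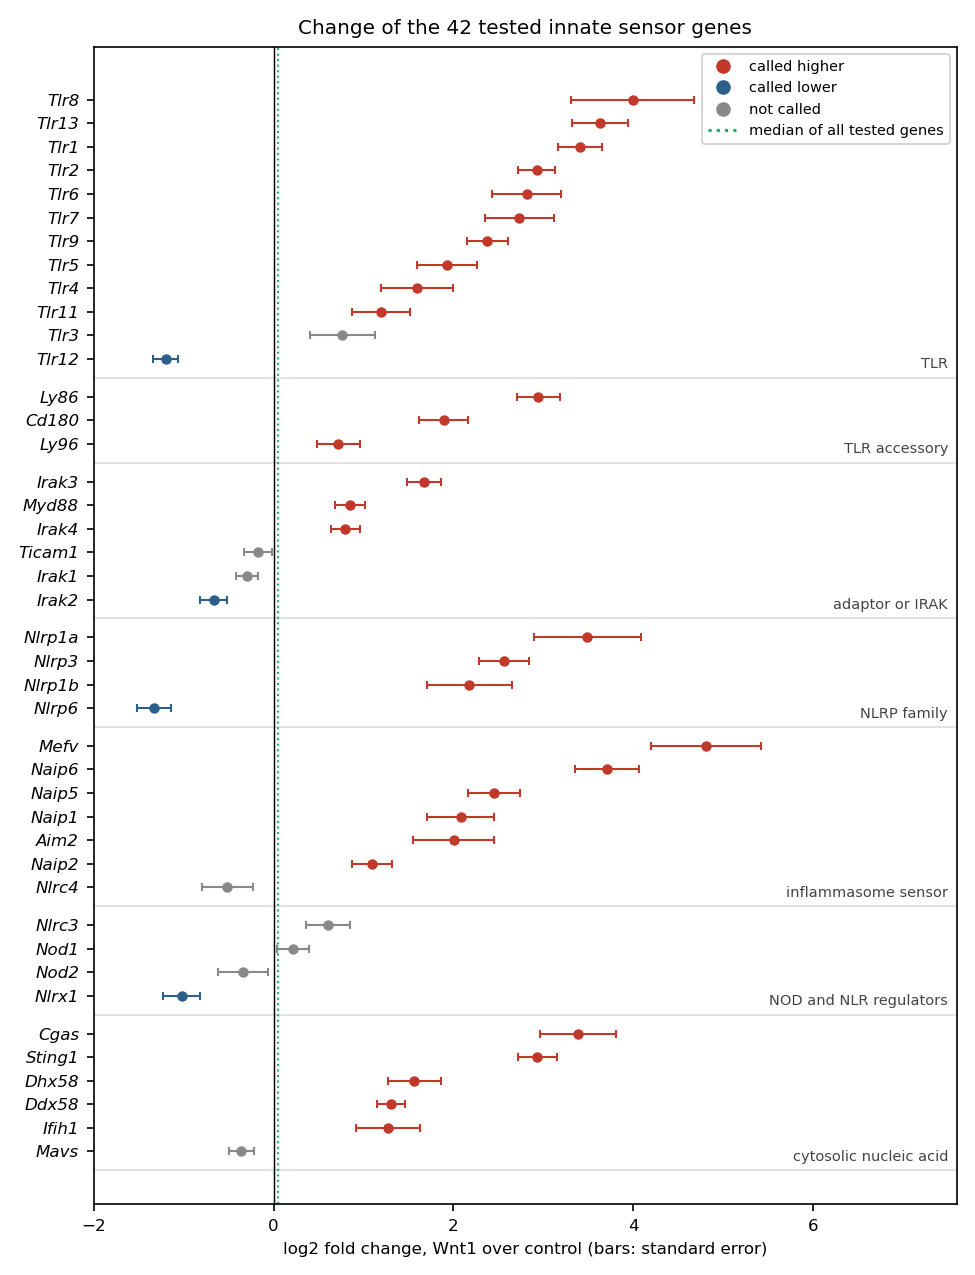
Log2 fold change of each of the 42 tested sensors (horizontal axis, Wnt1 over control) with its standard error, in blocks by role, red where called higher, blue where called lower and grey where not called. The dotted line is the median of all tested genes, 0.05; the 4 sensors called lower are Tlr12, Irak2, Nlrp6 and Nlrx1, and the fitted value of Mefv rests on 2 control counts.

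Among the 12 TLR genes, 10 were called higher (against 22.4% of all tested genes), Tlr12 was called lower and Tlr3 was not called, with a median log2 fold change of 2.56. Tlr5, Tlr6, Tlr8 and Tlr11 passed the filter through their Wnt1 libraries; of the other 8, 6 were higher, 1 lower and 1 not called, with a median that is also 2.56. The surface receptors for bacterial lipopeptides, Tlr2 and its partners Tlr1 and Tlr6, were among the strongly raised ones. Tlr2 (chr3:83836272-83841767, minus strand, GENCODE M21 on GRCm38) stood at 26.4, 34.2 and 31.3 CPM in Wnt1 kidneys, against 4.51, 3.10 and 4.47 CPM in control kidneys. Each Wnt1 library lay several-fold above each control library, by 2.93 ± 0.20 on the log2 scale (± standard error, adjusted p = 5.84e-05). Tlr1, which pairs with Tlr2 on triacylated lipopeptides, had 10.9, 10.7 and 9.33 CPM in Wnt1 kidneys and 1.29, 0.798 and 0.822 CPM in control kidneys. Its groups did not overlap, and the log2 fold change was 3.41 ± 0.25 (adjusted p = 6.48e-05). Tlr6, which pairs with Tlr2 on diacylated lipopeptides, had 3.01, 2.69 and 2.01 CPM in Wnt1 kidneys and 0.414, 0.487 and 0.183 CPM in control kidneys. The groups were again apart, by 2.81 ± 0.38 (adjusted p = 0.000841).

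Tlr1 and Tlr6 are neighbouring copies on chromosome 5, and the deposited counts divide reads between them. The Tlr1 count was fractional in 4 of 6 libraries, while its sum with Tlr6 was whole within 0.02 in all 6: in Wnt1 replicate 1, for example, 344.48 and 94.52 made 439 reads. The coding stretch they share without a difference is shown because a read inside it cannot be assigned to either gene by its sequence. It runs over 229 bases, at chr5:64925537-64925765 in Tlr1 and chr5:64953828-64954056 in Tlr6, both on the minus strand, in the GENCODE M21 transcripts of GRCm38.
Tlr1 and Tlr6: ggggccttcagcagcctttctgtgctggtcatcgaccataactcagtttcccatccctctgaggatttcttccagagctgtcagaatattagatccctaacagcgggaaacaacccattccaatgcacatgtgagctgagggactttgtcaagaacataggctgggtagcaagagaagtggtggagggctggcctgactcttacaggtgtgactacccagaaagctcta
Stretches of 50 bases found in both transcripts made up 15.3% of Tlr1 and 12.5% of Tlr6. With their counts summed as 1 gene, the log2 fold change was 3.27 ± 0.24 (adjusted p = 6.69e-05), a value that does not use the division of reads.

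The receptors for lipopolysaccharide and flagellin had smaller log2 fold changes than Tlr1, Tlr2 and Tlr6. Tlr4, the lipopolysaccharide receptor, stood at 11, 13.5 and 4.63 CPM in Wnt1 kidneys, against 3.82, 3.50 and 2.33 CPM in control kidneys. Wnt1 replicate 3 lay only a little above the highest control, and the log2 fold change was 1.60 ± 0.40 (adjusted p = 0.0156). That call was lost, at an adjusted p of 0.0509 to 0.0681, without Wnt1 replicate 1, Wnt1 replicate 2, control replicate 2 or control replicate 3 (log2 fold changes of 1.29 to 1.75). Tlr5, the flagellin receptor, had 1.39, 1.35 and 1.78 CPM in Wnt1 kidneys and 0.276, 0.487 and 0.411 CPM in control kidneys. Its groups did not overlap (1.93 ± 0.33, adjusted p = 0.00257).

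Among the endosomal nucleic acid receptors, those for RNA, bacterial ribosomal RNA and CpG DNA were higher. Tlr7, a receptor for RNA, had 13.6, 14.1 and 6.68 CPM in Wnt1 kidneys and 2.07, 2.04 and 1.05 CPM in control kidneys. The groups were apart although replicate 3 was the lowest library in each, and the log2 fold change was 2.73 ± 0.38 (adjusted p = 0.00102). Tlr8, its neighbour on the X chromosome, had 4.60, 7.36 and 2.69 CPM in Wnt1 kidneys and 0.644, 0.222 and 0.0456 CPM in control kidneys. All Wnt1 libraries exceeded all controls (3.99 ± 0.68, adjusted p = 0.00271), and without control replicate 1, the highest control, the log2 fold change was 5.22. Tlr9, which reads unmethylated CpG DNA, had 8.43, 11.8 and 12.8 CPM in Wnt1 kidneys and 1.93, 2.13 and 2.28 CPM in control kidneys. Its control libraries were nearly level, and the log2 fold change was 2.38 ± 0.22 (adjusted p = 0.000167). Tlr13, which in mice reads bacterial ribosomal RNA, had 16.8, 18.6 and 9.56 CPM in Wnt1 kidneys and 1.2, 1.02 and 1.42 CPM in control kidneys. Even its lowest Wnt1 library was far above its highest control (3.63 ± 0.31, adjusted p = 0.000115).

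Tlr3, the endosomal receptor for paired RNA strands, did not separate the groups. It had 21.6, 21.5 and 9.33 CPM in Wnt1 kidneys and 11.1, 12.8 and 6.94 CPM in control kidneys. Wnt1 replicates 1 and 2 exceeded every control, whereas Wnt1 replicate 3 fell between control replicates 3 and 1, and the log2 fold change of 0.76 ± 0.36 was not called (adjusted p = 0.13). Tlr3 was called higher without Wnt1 replicate 3 (1.06, adjusted p = 0.0100), without both libraries numbered 3 (0.84, adjusted p = 0.000508), with a term for those libraries (0.72, adjusted p = 0.000185), with an offset for GC content (0.40, adjusted p = 0.0168) and with library totals in place of TMM factors (1.19, adjusted p = 0.0372). Its exons also overlap 381 bases of an antisense gene, Gm45542.

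Tlr11 and Tlr12 are rodent receptors for the profilin of Toxoplasma, and Tlr12 was the TLR gene called lower. Tlr12 (chr4:128615443-128618619, minus strand) stood at 15.6, 14.1 and 17.8 CPM in Wnt1 kidneys, against 37.4, 35.7 and 36.0 CPM in control kidneys. All Wnt1 libraries were below all controls, at -1.2 ± 0.14 on the log2 scale (adjusted p = 0.000401). Tlr11 had 1.05, 1.10 and 0.873 CPM in Wnt1 kidneys and 0.368, 0.532 and 0.411 CPM in control kidneys. The groups were apart (1.19 ± 0.32, adjusted p = 0.0178), but Tlr11 passed the filter through its Wnt1 libraries, and the call was lost with DESeq2 (adjusted p = 0.084) and, at up to 0.0658, without Wnt1 replicate 1, Wnt1 replicate 2, control replicate 1 or control replicate 3.

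**Figure D2:**
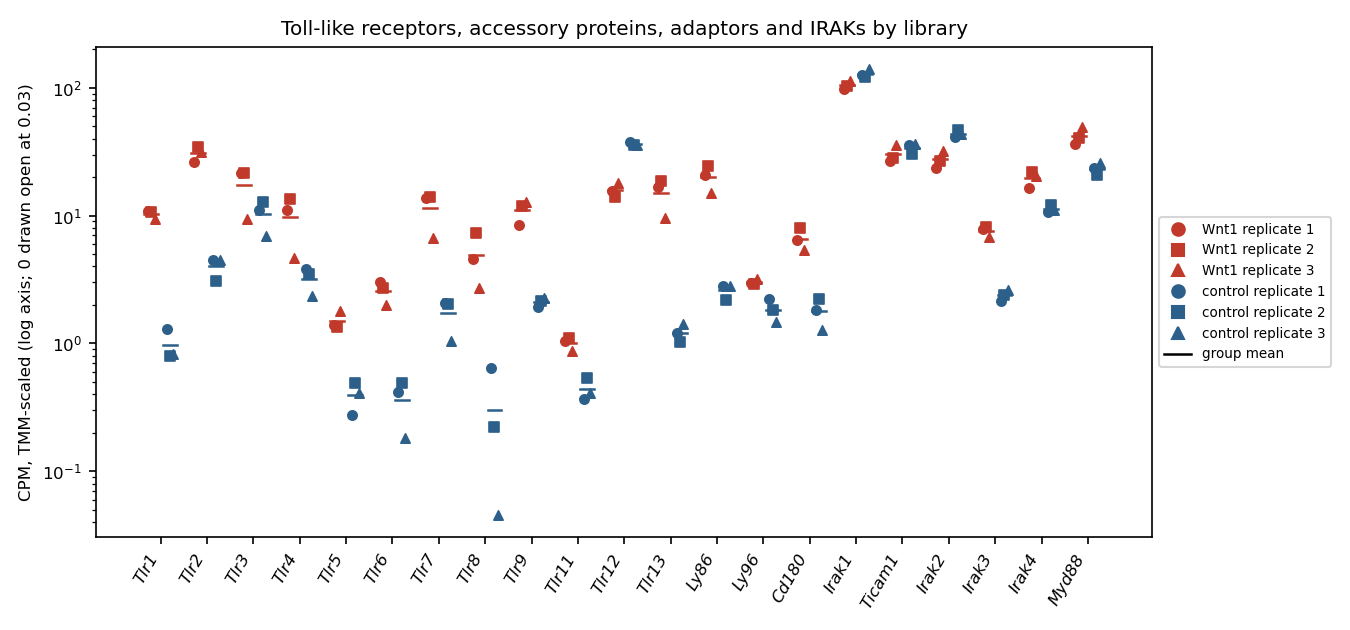
Level of each TLR gene, TLR accessory gene, adaptor gene and Irak gene in every library (CPM, log axis), Wnt1 libraries left of control libraries. Tlr12 is the single TLR gene whose Wnt1 libraries, 14.1 to 17.8 CPM, all lie below its controls, and Tlr3 the single one whose groups overlap.

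The makeup of TLR transcripts changed with these moves. On the authors' FPKM scale, which divides by transcript length and allows levels of different genes to be compared, the 12 TLR genes summed to 48.2, 54.6 and 38.3 in Wnt1 kidneys and 17.1, 17.2 and 15 in control kidneys. Tlr12 made up 11.8%, 9.67% and 16.4% of that sum in Wnt1 kidneys, against 60.5%, 56.5% and 63.9% in control kidneys. Tlr2 made up 21.1%, 24.8% and 30.3% in Wnt1 kidneys, against 7.69%, 5.17% and 8.37% in control kidneys. FPKM carries no TMM factor. On filtered log2(FPKM + 1) the median log2 fold change of all genes was 0.36, against 0.05 in the main test. The summed FPKM thus rises more than the CPM scale above would show, while shares within a library do not depend on that scaling. In Wnt1 kidneys Tlr2 had the highest mean level, 11.8 FPKM, and lay above every other TLR gene in each library. Tlr3 (6.34 FPKM) and Tlr12 (5.74 FPKM) followed in Wnt1 kidneys, and neighbours from there down to Tlr6 (1.76 FPKM) overlapped. Tlr5 (0.506 FPKM) and Tlr11 (0.367 FPKM) were lowest there. In control kidneys Tlr12 (9.89 FPKM) led in each library, with Tlr3 (2.73 FPKM) next, and Tlr8 was lowest at 0.079 FPKM.

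**Figure D3:**
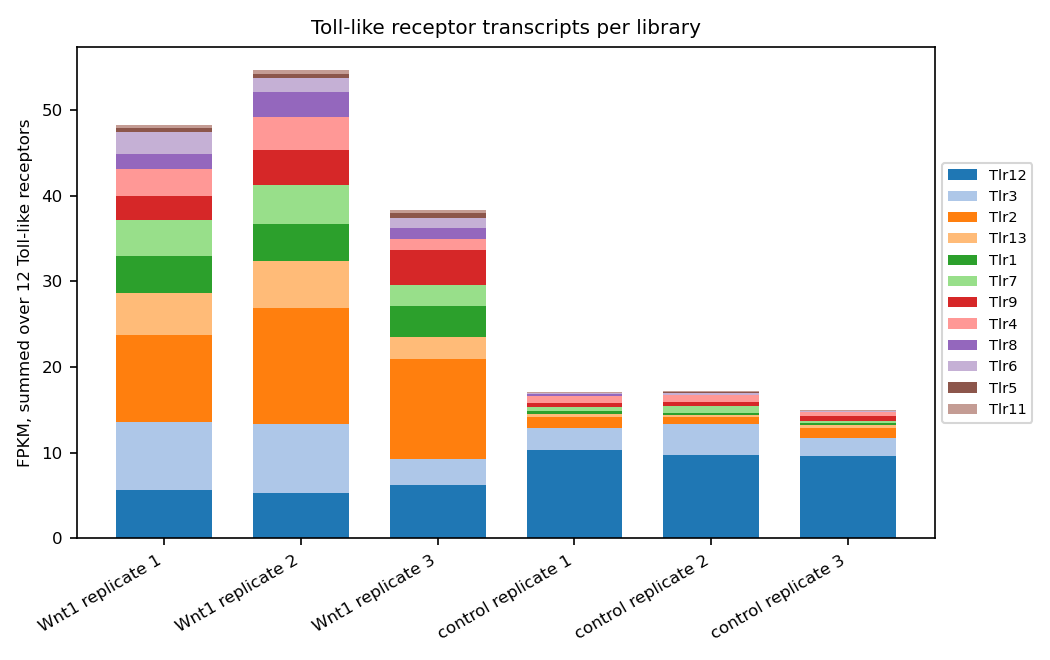
FPKM of the 12 TLR genes stacked in 1 bar per library, Wnt1 libraries left of control libraries. The Wnt1 bars reach 38.3 to 54.6 FPKM and the control bars 15 to 17.2 FPKM; Tlr12 fills 9.67% to 16.4% of the Wnt1 bars and 56.5% to 63.9% of the control bars.

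The accessory proteins of TLRs rose to different degrees. Ly86 encodes MD-1, the partner of the TLR4-like receptor Cd180. It stood at 20.7, 24.5 and 14.9 CPM in Wnt1 kidneys, against 2.80, 2.17 and 2.83 CPM in control kidneys, with no overlap (2.94 ± 0.24, adjusted p = 9.85e-05). Cd180 had 6.44, 8.0 and 5.39 CPM in Wnt1 kidneys and 1.84, 2.22 and 1.28 CPM in control kidneys, also apart (1.89 ± 0.27, adjusted p = 0.00111). The ratio of Ly86 to Cd180 in FPKM was 6.97, 6.26 and 5.92 in Wnt1 kidneys and 3.56, 2.29 and 5.18 in control kidneys. Ly96 encodes MD-2, which holds lipopolysaccharide against TLR4. It had 2.95, 2.90 and 3.19 CPM in Wnt1 kidneys and 2.21, 1.82 and 1.46 CPM in control kidneys. The groups did not overlap and the small rise was called (0.72 ± 0.24, adjusted p = 0.0437). That call was lost with DESeq2 (adjusted p = 0.0806), with the GC offset (0.45, adjusted p = 0.372), without both libraries numbered 3 (adjusted p = 0.0873) and, at up to 0.103, without any single library other than control replicate 1.

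The shared signalling chain below the TLRs moved less than the receptors and in both directions, with a median log2 fold change of 0.31 over 6 genes. Myd88, the adaptor of nearly all TLRs, stood at 36.0, 40.7 and 49.5 CPM in Wnt1 kidneys, against 23.4, 20.8 and 25.8 CPM in control kidneys. All Wnt1 libraries were higher (0.85 ± 0.16, adjusted p = 0.00418). Irak4, the kinase recruited first, had 16.5, 22.0 and 20.2 CPM in Wnt1 kidneys and 10.7, 12.1 and 11 CPM in control kidneys, without overlap (0.80 ± 0.16, adjusted p = 0.00529). Irak3, known as a brake on this pathway in macrophages, had 7.89, 8.07 and 6.83 CPM in Wnt1 kidneys and 2.16, 2.39 and 2.60 CPM in control kidneys. It rose most of the 6 (1.67 ± 0.19, adjusted p = 0.000375), and its ratio to Irak4 in FPKM was 0.441, 0.340 and 0.319 in Wnt1 kidneys and 0.187, 0.183 and 0.220 in control kidneys.

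Irak2, a relay kinase of the same complex, was lower, with 23.6, 26.9 and 31.9 CPM in Wnt1 kidneys and 40.9, 46.5 and 43.3 CPM in control kidneys. Its groups did not overlap (-0.66 ± 0.15, adjusted p = 0.00879), but the call was lost with library totals in place of TMM factors (-0.25, adjusted p = 0.159), which move the median of all tested genes to 0.47, and on the FPKM scale (-0.22 and -0.23, adjusted p of 0.199 to 0.22). Ticam1, which encodes TRIF, the adaptor of TLR3 and TLR4, had 26.7, 28.4 and 35.4 CPM in Wnt1 kidneys and 35.4, 30.5 and 36.3 CPM in control kidneys. Those ranges overlapped and it was not called (-0.18 ± 0.15, adjusted p = 0.398). Irak1 had 98.1, 103 and 113 CPM in Wnt1 kidneys and 125, 121 and 139 CPM in control kidneys, every Wnt1 library being lower without a call (-0.30 ± 0.12, adjusted p = 0.0917). Without Wnt1 replicate 3 Irak1 was called lower (-0.36, adjusted p = 0.0217), as it was with the GC offset (adjusted p = 0.0322), whereas its sign turned to 0.13 with library totals and to 0.09 on the FPKM scale. Ticam1 likewise turned to 0.24 with library totals, so no direction holds for either gene under every scaling.

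Of the 17 NLRP family genes in the table, 4 passed the filter. Nlrp3, the widely responsive inflammasome sensor, stood at 3.01, 4.11 and 2.85 CPM in Wnt1 kidneys, against 0.552, 0.576 and 0.548 CPM in control kidneys. The control libraries were nearly equal and the Wnt1 libraries far above them (2.56 ± 0.28, adjusted p = 0.000301). Nlrp1a and Nlrp1b encode sensors that form inflammasomes after cleavage of their own N-terminus. Nlrp1a had 1.33, 1.31 and 1.06 CPM in Wnt1 kidneys and 0, 0.177 and 0.137 CPM in control kidneys, apart but from few control reads (3.49 ± 0.60, adjusted p = 0.0023). Nlrp1b had 1.27, 1.42 and 0.835 CPM in Wnt1 kidneys and 0.184, 0.443 and 0.137 CPM in control kidneys, also apart (2.18 ± 0.48, adjusted p = 0.00744). These transcripts share runs of up to 102 bases, and without control replicate 2 the log2 fold changes were 4.14 for Nlrp1a and 2.91 for Nlrp1b.

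Nlrp6, known as an epithelial sensor in the gut, was the most abundant NLR gene per length in both groups, at 9.39 FPKM in Wnt1 kidneys and 17.5 FPKM in control kidneys. The gene (chr7:140920902-140929192, plus strand) stood at 38.2, 26.7 and 41.0 CPM in Wnt1 kidneys, against 81.1, 98.3 and 87.0 CPM in control kidneys. Each Wnt1 library was below each control (-1.33 ± 0.18, adjusted p = 0.000925). The other 13 NLRP genes did not pass the filter. Nlrp10 had 42, 40 and 9 counts in Wnt1 kidneys and 4, 2 and 1 counts in control kidneys, and its level cleared the floor in too few libraries for the test. Nlrp5 reached at most 8 counts in a library, Nlrp12 at most 4 and Nlrp4f at most 3. Nlrp4a, Nlrp9b and Nlrp14 reached at most 1. No read was counted for Nlrp2, Nlrp4b, Nlrp4c, Nlrp4e, Nlrp9a or Nlrp9c, which at these depths allows up to 0.0951 to 0.138 CPM in a library.

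Among the inflammasome sensors outside that family, 6 of 7 were called higher, against 22.4% of all tested genes, and Nlrc4 was not called. Aim2, Mefv, Naip1, Naip6 and, on the scale before TMM, Naip5 passed the filter through their Wnt1 libraries. That favours a call as higher, so these calls are no separate evidence. Of the remaining ones, Naip2 was called higher. NAIP proteins bind bacterial flagellin or secretion-system proteins and then engage NLRC4. Naip2 stood at 8.27, 9.49 and 6.11 CPM in Wnt1 kidneys, against 3.31, 4.12 and 3.74 CPM in control kidneys, with all Wnt1 libraries higher (1.09 ± 0.22, adjusted p = 0.00545). Naip5, a flagellin sensor, had 3.14, 3.12 and 2.50 CPM in Wnt1 kidneys and 0.552, 0.399 and 0.639 CPM in control kidneys (2.45 ± 0.29, adjusted p = 0.000423). Naip6, its close copy, had 3.96, 2.48 and 3.19 CPM in Wnt1 kidneys and 0.230, 0.310 and 0.183 CPM in control kidneys (3.71 ± 0.35, adjusted p = 0.000167). The groups of both genes were apart, but the genes share runs of up to 229 bases, and 1 of 6 libraries held a fractional count for Naip5. Summed, they gave 2.98 ± 0.23 (adjusted p = 8.34e-05). Naip1, which binds the secretion needle, had 1.39, 1.73 and 1.14 CPM in Wnt1 kidneys and 0.460, 0.310 and 0.228 CPM in control kidneys, without overlap (2.08 ± 0.37, adjusted p = 0.00287).

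Nlrc4, the partner that all NAIPs need, went with none of them. It had 3.07, 3.97 and 2.35 CPM in Wnt1 kidneys and 3.82, 5.80 and 3.79 CPM in control kidneys. Its ranges overlapped and the log2 fold change of -0.51 ± 0.28 was not called (adjusted p = 0.182); a term for the libraries numbered 3 gave -0.53 and a call as lower (adjusted p = 0.043). The summed Naip genes were 4.30, 3.63 and 4.58 times the Nlrc4 level in FPKM in Wnt1 kidneys, against 1.03, 0.870 and 1.14 times in control kidneys. The ratio was therefore near parity in every control library and above it in every Wnt1 library. Naip1, Naip5 and Naip6 passed the filter through their Wnt1 libraries, which favours a higher sum there. Naip2 alone had 2.01, 2.43 and 1.51 FPKM in Wnt1 kidneys, above Nlrc4 (0.861, 1.09 and 0.612 FPKM) in each library. In control kidneys it had 0.624, 0.757 and 0.674 FPKM, below Nlrc4 (0.813, 1.06 and 0.734 FPKM) in each.

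Aim2, a sensor of cytosolic DNA, stood at 2.82, 2.55 and 1.18 CPM in Wnt1 kidneys, against 0.460, 0.798 and 0.365 CPM in control kidneys. Its groups did not overlap (2.0 ± 0.45, adjusted p = 0.00867). Mefv encodes pyrin, which forms an inflammasome of its own. It had 1.14, 0.991 and 0.797 CPM in Wnt1 kidneys and 0, 0.0443 and 0.0456 CPM in control kidneys, or 85 against 2 counts in all. The ratio was 32.7 with a 95% exact interval of 8.77 to 274 for counting error only, and it was called higher (adjusted p = 0.000508).

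**Figure D4:**
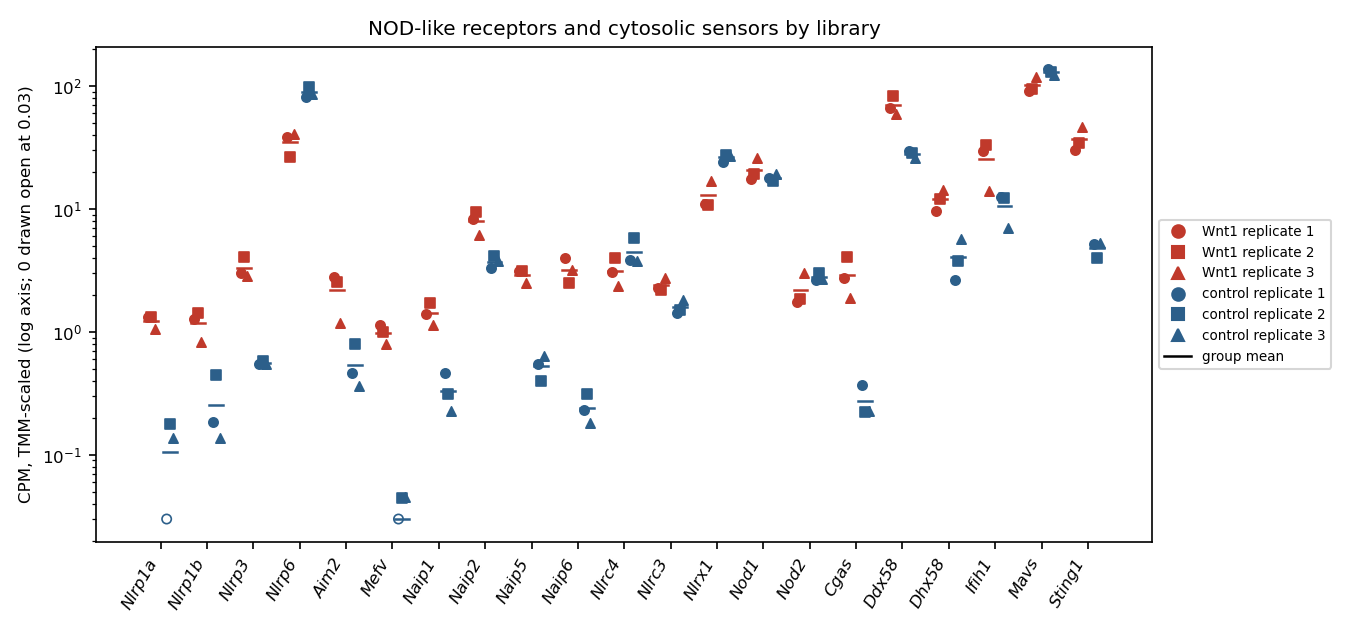
Level in every library (CPM, log axis) of the tested NLR genes, other inflammasome sensors and cytosolic RNA and DNA sensors, Wnt1 libraries left of control libraries; bars are group means and open circles libraries at 0. Nlrp6 and Nlrx1 lie lower in all Wnt1 libraries, Nlrc4 overlaps, and Nlrp3, Aim2, Mefv and the Naip genes lie higher.

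The NOD receptors and the NLRs described as regulators included no gene called higher. Nod1, which binds peptidoglycan fragments mainly of Gram-negative bacteria, stood at 17.7, 19.2 and 25.9 CPM in Wnt1 kidneys, against 17.9, 16.8 and 19.1 CPM in control kidneys. The ranges overlapped (0.22 ± 0.18, adjusted p = 0.361), and it was called higher with library totals (0.64, adjusted p = 0.0135) and by limma on the FPKM scale (0.48 to 0.57, adjusted p of 0.0321 to 0.0422). Nod2, which binds muramyl dipeptide, had 1.74, 1.84 and 3.0 CPM in Wnt1 kidneys and 2.62, 3.01 and 2.69 CPM in control kidneys. Only Wnt1 replicate 3 reached the control range (-0.34 ± 0.28, adjusted p = 0.358). Without it Nod2 was called lower (-0.63, adjusted p = 0.0428), and with library totals its sign turned (0.07). Nlrx1 (chr9:44252717-44268599, minus strand), a mitochondrial NLR known to dampen antiviral signalling, had 11.1, 10.8 and 17.0 CPM in Wnt1 kidneys and 24.1, 27.6 and 27.2 CPM in control kidneys, lower in every Wnt1 library (-1.02 ± 0.20, adjusted p = 0.0051). Nlrc3, described as a brake in lymphocytes and myeloid cells, had 2.28, 2.2 and 2.77 CPM in Wnt1 kidneys and 1.43, 1.51 and 1.83 CPM in control kidneys. Its Wnt1 libraries all exceeded the controls without a call (0.60 ± 0.24, adjusted p = 0.08), and it was called higher with library totals (1.02, adjusted p = 0.0075), with the GC offset (0.65, adjusted p = 0.0201), with a term for the libraries numbered 3 (0.61, adjusted p = 0.035) and by limma on log2(FPKM + 1) with no filter (0.31, adjusted p = 0.00485).

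The sensors of cytosolic RNA and DNA rose, while the mitochondrial adaptor of the RNA sensors did not. Sting1, the adaptor for cyclic dinucleotides, stood at 30.3, 34.3 and 46.3 CPM in Wnt1 kidneys, against 5.15, 4.03 and 5.34 CPM in control kidneys. The groups were far apart (2.93 ± 0.22, adjusted p = 6.88e-05). Cgas, the DNA-binding enzyme that makes its ligand, had 2.73, 4.04 and 1.90 CPM in Wnt1 kidneys and 0.368, 0.222 and 0.228 CPM in control kidneys, also without overlap (3.39 ± 0.42, adjusted p = 0.00052). The ratio of Cgas to Sting1 in FPKM was 0.0453, 0.0677 and 0.0214 in Wnt1 kidneys and 0.0407, 0.0365 and 0.0298 in control kidneys, overlapping ranges.

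Ddx58, which encodes RIG-I, had 66.6, 82.6 and 59.7 CPM in Wnt1 kidneys and 29.6, 28.8 and 25.9 CPM in control kidneys. All Wnt1 libraries were above the controls (1.31 ± 0.16, adjusted p = 0.00046). Dhx58, which encodes LGP2, a modulator of both RNA sensors, had 9.67, 12.2 and 14.3 CPM in Wnt1 kidneys and 2.67, 3.77 and 5.75 CPM in control kidneys, again apart (1.57 ± 0.30, adjusted p = 0.00397). Ifih1, which encodes MDA5, had 29.4, 33.5 and 14.0 CPM in Wnt1 kidneys and 12.5, 12.3 and 7.03 CPM in control kidneys. Wnt1 replicate 3 lay just above the highest control (1.28 ± 0.36, adjusted p = 0.0235), and the call was lost, at an adjusted p of 0.0591 to 0.0838, without any single library other than Wnt1 replicate 3. Mavs, their shared adaptor, had 91.5, 94.3 and 119 CPM in Wnt1 kidneys and 137, 131 and 123 CPM in control kidneys. Its Wnt1 libraries were all below the controls without a call (-0.36 ± 0.14, adjusted p = 0.0769). Mavs was called lower without Wnt1 replicate 3 (-0.49, adjusted p = 0.00451) and with DESeq2 (adjusted p = 0.0419), but its sign turned with library totals and on the FPKM scale (0.06 in each).

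Exons of several sensors overlap a gene on the opposite strand, and the labels do not say whether counting used strand, so reads from the 2 genes cannot be told apart. The called sensors with such overlaps are Nlrx1 (683 bases of Gm10686), Irak4 (395 of Twf1), Myd88 (290 of Acaa1a), Cgas (201 of Gm8093), Irak2 (196 of Gm43963), Irak3 (192 of Tmbim4, and fewer or as many of Gm47009), Cd180 (182 of Mast4) and Dhx58 (141 of Dhx58os).

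Replicate 3 lay below the mean of replicates 1 and 2 for most of the AT-rich sensors in both groups. For each gene the shift of replicate 3 was taken as its log2(CPM + 0.5) minus the mean of replicates 1 and 2 of its group. Across the 42 tested sensors this shift followed the GC content of the transcript, with Pearson's r of 0.84 and a Spearman rank correlation of 0.82 in Wnt1 kidneys and 0.67 and 0.60 in control kidneys. Over all tested genes r was 0.70 in Wnt1 kidneys and 0.55 in control kidneys; these are descriptions across genes that share the same libraries. The 9 sensors under 45% GC had a median shift of -0.99 in Wnt1 kidneys and -0.56 in control kidneys. Their shift was negative for 7 of the 9 in Wnt1 kidneys and for 8 in control kidneys. Ly96, the most AT-rich (38.9% GC), shifted by 0.11 in Wnt1 kidneys. The 12 with at least 53% GC had a median of 0.36 in Wnt1 kidneys and 0.11 in control kidneys. Tlr4 (39.4% GC) shifted by -1.31 in Wnt1 kidneys and -0.56 in control kidneys, and Nlrx1 (57.7% GC) by 0.62 in Wnt1 kidneys and 0.08 in control kidneys. Without both libraries numbered 3, Tlr4 gave 1.74 (adjusted p = 0.000114) and Ifih1 gave 1.34 (adjusted p = 4.49e-05), close to their values with all libraries.

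**Figure D5:**
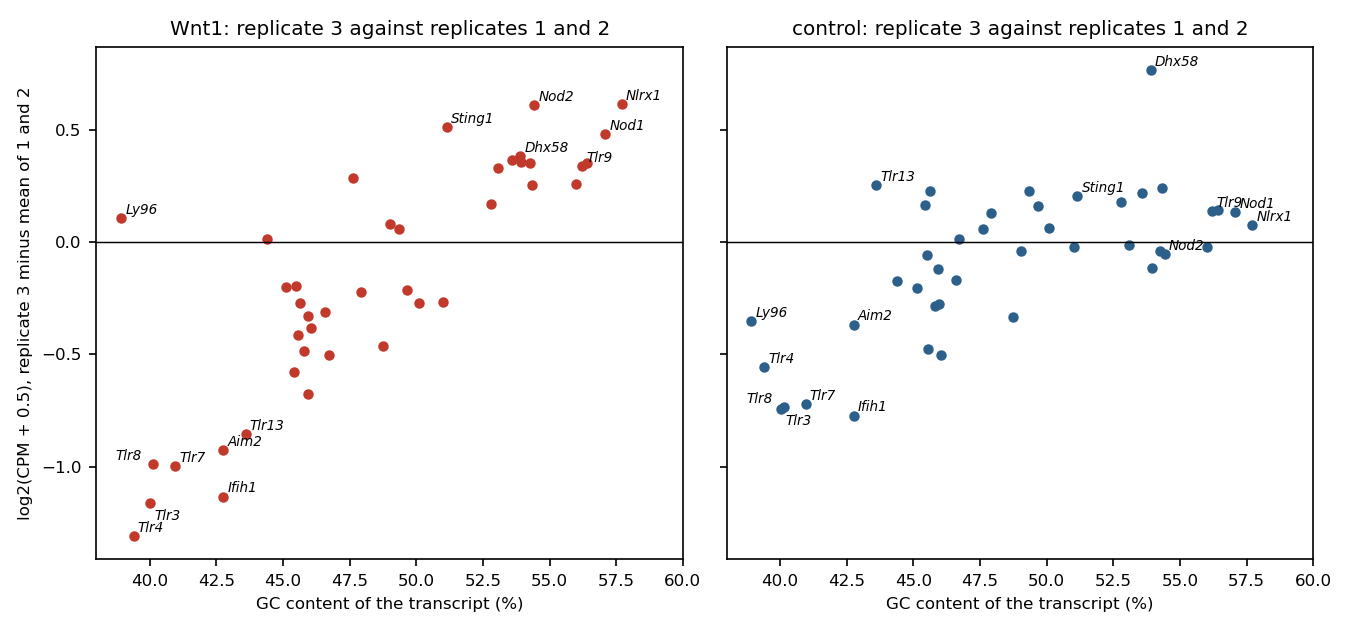
Shift of replicate 3 against replicates 1 and 2 of the same group (vertical axis, log2 of CPM + 0.5) by GC content of the transcript (horizontal axis, percent) for the 42 tested sensors, Wnt1 left and control right. Points climb from left to right in both panels, with Tlr3, Tlr4, Tlr7, Tlr8 and Ifih1 at the low end of both.

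Leukocyte markers moved with the sensors, and the part of cell number in these results was not tested. The marker counts below stand beside 22.4% called higher and 18.7% called lower among all tested genes. Of 16 macrophage and monocyte markers 15 were called higher, with a median log2 fold change of 2.99 and summed FPKM of 1703 to 2105 in Wnt1 kidneys against 138 to 170 in control kidneys; none was at 0 in either group. Of 8 dendritic cell markers 7 were higher (median 1.64), and all 8 T and NK cell markers were (median 1.75). Cd163, Siglech, Klrb1c and Ncr1 passed the filter through the Wnt1 libraries. Without them, 14 of 15 macrophage and monocyte markers (median 2.99) and 6 of 7 dendritic cell markers (median 1.55) were higher. So were all 6 remaining T and NK cell markers (median 1.60). Of 10 neutrophil markers 4 passed the filter and rose, 3 of them having passed through the Wnt1 libraries; Mpo, Elane and Camp were listed at 0 in every Wnt1 kidney, and Ngp and Camp in every control kidney. Of 7 B cell markers 4 passed and 3 rose. All 11 proximal tubule markers were lower (median -1.52), and 6 of 10 markers of the thick limb, distal tubule and collecting duct were lower, with none higher. All 6 tubular injury markers and all 6 fibroblast and mural markers were higher, and 4 of 7 endothelial markers were lower. The injury markers Krt20 and Sox9 passed the filter through the Wnt1 libraries, and the other 4 were higher as well. In whole kidney, fewer cells of a type and less RNA per cell cannot be told apart.

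Genes that work beside the sensors were read from lists by pathway step, against 22.4% higher, 18.7% lower and 41.1% called in all among the tested genes. Of 29 co-receptors, transport factors and signalling partners of TLRs, 10 were higher, 4 lower and 15 not called, with a median log2 fold change of 0.26; the 48.3% called in all is near the share of all tested genes. Cd14, which hands lipopolysaccharide to TLR4, averaged 54.7 ± 7.48 CPM in Wnt1 kidneys and 6.48 ± 0.391 CPM in control kidneys (SD, n = 3 each) (3.08 ± 0.16, edgeR adjusted p = 2.68e-05). Unc93b1, which carries nucleic acid TLRs to endosomes, averaged 89.1 ± 15 CPM in Wnt1 kidneys and 21.4 ± 1.61 CPM in control kidneys (2.06 ± 0.16, edgeR adjusted p = 8.58e-05). Ticam2, the bridge from TLR4 to TRIF, rose by 2.79 ± 0.31, Pik3ap1 by 2.78 ± 0.18 and Tnfaip3, the ubiquitin-editing brake A20, by 2.0 ± 0.18. The central kinases Map3k7, Chuk, Ikbkb and Ikbkg and the ligase Traf6 were not called. The lower genes were Cd36, Peli2, Tollip and Sigirr, the last a decoy-like brake of TLR signalling.

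Of the 19 tested inflammasome effectors and regulators, 12 were higher, 7 were not called and none was lower (median 1.26). Pycard, the ASC adaptor, averaged 37.2 ± 5.88 CPM in Wnt1 kidneys and 11.3 ± 0.859 CPM in control kidneys (1.72 ± 0.16, edgeR adjusted p = 0.000174). Casp1, the protease it recruits, averaged 3.80 ± 0.794 CPM in Wnt1 kidneys and 0.813 ± 0.211 CPM in control kidneys (2.22 ± 0.30). Gsdmd, the pore protein it cuts, rose by 1.92 ± 0.20. Among its cytokine substrates Il1b rose to 7.15 ± 1.64 CPM in Wnt1 kidneys, against 1.22 ± 0.464 CPM in control kidneys (2.54 ± 0.32). Il18, the other substrate, averaged 2.11 ± 0.239 CPM in Wnt1 kidneys and 1.80 ± 0.428 CPM in control kidneys and was not called (0.23 ± 0.26, edgeR adjusted p = 0.526). Il1rn, the receptor antagonist of interleukin-1, rose by 6.20 ± 0.29 but passed the filter through its Wnt1 libraries alone. Without it 11 of 18 were higher (median 1.25). Casp4, with 9 counts in control replicate 3 (0.411 CPM after TMM scaling), also lay under the floor before that scaling and is among those 11. Among other regulators Panx1 rose by 2.75 ± 0.23, Pstpip1 by 2.49 ± 0.24 and P2rx7, the ATP-gated channel upstream of NLRP3, by 2.09 ± 0.19.

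Around the NOD receptors, 4 of 12 tested partners were higher, 2 lower and 6 not called (median 0.25); the 50% called in all is near the share of all tested genes. Ripk2, the kinase both NOD proteins use, averaged 6.96 ± 1.3 CPM in Wnt1 kidneys and 5.71 ± 0.362 CPM in control kidneys and was not called (0.29 ± 0.20, edgeR adjusted p = 0.282). The ubiquitin ligases Birc3 and Birc2 rose by 2.24 ± 0.21 and 1.33 ± 0.30, and Ripk3, a kinase of necroptosis, by 2.51 ± 0.25. Among transporters of peptides and cell wall fragments, Slc15a3 rose by 1.66 ± 0.21, and Slc46a3 was lower (-1.90 ± 0.18), as was Slc15a2.

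Among 35 partners of RNA and DNA sensing, 20 were higher, 2 lower and 13 not called (median 1.07); Ifi205 passed the filter through its Wnt1 libraries, and without it the median was 0.95. Irf7, the interferon-inducible transcription factor, averaged 127 ± 44.6 CPM in Wnt1 kidneys and 35.6 ± 11.3 CPM in control kidneys (1.83 ± 0.31, edgeR adjusted p = 0.00261). Oas2, which makes the activator of RNase L, rose by 2.26 ± 0.23, Ikbke by 2.11 ± 0.21, the NLR transactivators of MHC genes Ciita and Nlrc5 by 2.08 ± 0.16 and 1.66 ± 0.23, and Dtx4 by 1.52 ± 0.16. Tbk1, the kinase below STING and MAVS, averaged 24.5 ± 8.43 CPM in Wnt1 kidneys and 24.0 ± 4.0 CPM in control kidneys and was not called (0.03 ± 0.28, edgeR adjusted p = 0.936). The lower genes were Rnf5 and Enpp1, both known as brakes on the STING pathway, ENPP1 as the enzyme that degrades cGAMP.

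Of 16 genes reported to encode endogenous TLR ligands, 11 were higher, 2 lower and 3 not called (median 3.03). S100a8, S100a9, Saa3 and Sftpd passed the filter through their Wnt1 libraries; of the other 12, 7 were higher, with a median of 1.74. The matrix proteins Tnc, Vcan and Fn1 rose by 3.80 ± 0.20, 3.74 ± 0.30 and 2.56 ± 0.25, and the fibrinogen chains Fgg and Fga by 3.50 ± 0.32 and 2.0 ± 0.21. Umod, the urinary protein of the thick limb, was lower at 2537 ± 647 CPM in Wnt1 kidneys and 6025 ± 728 CPM in control kidneys (-1.25 ± 0.22, edgeR adjusted p = 0.00267), and Hspd1 was lower too. Of 20 NF-kappaB and interferon output genes, 18 were tested and all 18 were higher (median 1.88); Il6 and Ifnb1 did not pass the filter. Tnf, Cxcl1 and Cxcl2 passed it through their Wnt1 libraries, and the other 15 had a median of 1.70. Vcam1, a leukocyte adhesion molecule, rose by 4.56 ± 0.24, Tnf by 4.22 ± 0.39, the monocyte chemokine Ccl2 by 4.21 ± 0.25 and Icam1 by 1.70 ± 0.13. Cxcl2, a neutrophil chemokine, had 347 counts in Wnt1 kidneys and 1 in control kidneys.

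Promoter sequence was read from windows at RefSeq starts (GRCm38.p6), and 37 of the 42 tested sensors had a window in this search. Sting1, Tlr4, Tlr7, Dhx58 and Ly96 were not searched, so nothing is said of their promoters. The 250 bases before the listed start were searched on both strands for 4 motifs: the interferon-response core (GAAA, NN, GAAA, read without gaps), the site of the myeloid factor PU.1 GAGGAAGT, the AP-1 site TGANTCA, and the kappaB site. In the first window of each gene, the PU.1 letters were found in 5 of the 37 (13.5%), against 2.44% of all 32851 windows, and those 5 genes, Aim2, Nlrp1a, Nlrp1b, Tlr1 and Tlr11, were all called higher, as were 25 of the 37. Aim2, Nlrp1a, Nlrp1b and Tlr11 are among the genes that passed the filter through their Wnt1 libraries, so nothing can be read from that match of letters and call. The interferon-response core was in 3 of 37 (8.11%), Myd88, Tlr6 and Tlr11, against 2.98% of all windows. The kappaB site was in 3 (8.11%), Tlr2, Tlr3 and Naip5, against 3.90%, and the AP-1 site in 2 (5.41%), against 6.75%. The counts are small and a match is a description of letters, not a bound site.

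These windows are shown because they hold the motifs, with motif letters in capitals: Tlr11 (chr14:50357664-50357913, plus strand) for PU.1 and the interferon-response core side by side, Nlrp1a (chr11:71144705-71144954, minus strand) and Nlrp1b (chr11:71230734-71230983, minus strand) for PU.1 letters within closely similar windows, and Tlr2 (chr3:83841609-83841858, minus strand) for overlapping kappaB matches.
Tlr11: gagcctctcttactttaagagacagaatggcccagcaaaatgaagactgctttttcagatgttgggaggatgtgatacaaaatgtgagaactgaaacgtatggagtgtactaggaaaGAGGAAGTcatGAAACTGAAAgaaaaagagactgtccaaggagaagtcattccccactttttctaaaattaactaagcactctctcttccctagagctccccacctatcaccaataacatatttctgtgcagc
Nlrp1a: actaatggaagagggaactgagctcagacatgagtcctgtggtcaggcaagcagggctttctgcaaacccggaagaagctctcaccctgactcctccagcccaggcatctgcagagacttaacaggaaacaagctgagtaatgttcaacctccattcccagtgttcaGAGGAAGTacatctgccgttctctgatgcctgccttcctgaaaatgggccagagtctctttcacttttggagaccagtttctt
Nlrp1b: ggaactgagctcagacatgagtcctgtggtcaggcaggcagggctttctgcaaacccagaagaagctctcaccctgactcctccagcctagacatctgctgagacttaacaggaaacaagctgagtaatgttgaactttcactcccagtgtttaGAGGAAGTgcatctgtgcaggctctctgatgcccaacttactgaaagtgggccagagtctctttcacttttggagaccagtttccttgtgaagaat
Tlr2: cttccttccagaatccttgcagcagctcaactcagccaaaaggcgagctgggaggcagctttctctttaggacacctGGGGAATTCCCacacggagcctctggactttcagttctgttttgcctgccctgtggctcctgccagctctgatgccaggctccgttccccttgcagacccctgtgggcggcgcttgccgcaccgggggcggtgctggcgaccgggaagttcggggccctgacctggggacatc
In Tlr11 the PU.1 letters begin at position -133 and the interferon-response core at -122, counted from the listed start, and Tlr11 rose weakly (1.19). In Nlrp1a and Nlrp1b the PU.1 letters begin at positions -83 and -96. Tlr2, with its kappaB letters, rose by 2.93, while Tlr3, which also has a kappaB match, was not called. The listed starts of Tlr2, Tlr1, Aim2, Myd88, Tlr6 and Naip5 did not open a GENCODE transcript, so those windows may not lie at the start in use.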

How the data were processed

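RNA of mouse kidney was sequenced in 6 libraries after, per the labels' protocols, Trizol extraction, oligo(dT) enrichment and NEBNext Ultra preparation. The submitters' processing notes name mm10, RSEM, HISAT2, StringTie 1.3.1, Bowtie2 2.2.8 and fastp 0.18.0; neither they nor the labels say what each tool did or which strand setting was used. The authors deposited expected counts, estimates that divide reads shared between similar genes and need not be whole (9.02% were not, by more than 1e-06), and FPKM values, scaled by transcript length and library total. Gene IDs were matched to GENCODE M21 (22128 of 22183).

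Counts were rounded and tested in R 4.3.3 with edgeR 4.0.16: filterByExpr, TMM factors (1.12 to 1.19 in Wnt1 libraries, 0.848 to 0.879 in control libraries), robust quasi-likelihood test, two-sided, Benjamini-Hochberg adjustment over 14432 genes, calls at 0.05. Standard errors were derived from the coefficient and the F statistic and add nothing to the p-value. CPM values are scaled by library total and TMM factor. Alternatives used DESeq2 1.42.0, limma 3.58.1 on log2(FPKM + 1) and log2(FPKM + 0.1), other scalings and filters, left-out libraries and, chosen after seeing the data, a GC offset, a term for the libraries numbered 3 and summed gene pairs. Scripts were tested on simulated data.

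The genes and lists were chosen with earlier results of these data known. Every sensor that passed the filter is named; from each partner list up to 5 called genes with the smallest p and a set of named hub genes are given, and other partners are named by their call alone. With no molecular identifiers, intervals and floors cover counting error only.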

Additional observations from a re-analysis of the deposited data

How the results depend on the processing

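No paired analysis was possible because the replicate numbers follow record order and pair nothing. Of the 30 sensors called higher, 26 kept direction and call under every alternative in which they were tested. So did 3 of the 4 called lower and none of the 8 not called. A sensor such as Tlr2 was tested in 18 alternatives, but sensors with low levels were missing from some, Mefv and Naip5 having 15. A missing alternative was not counted as a change. Without the 11 that lay under the filter's floor in a control library after TMM scaling, 16 of 19 called higher kept direction and call, Naip5 included. Sensors called lower numbered 7 without both libraries numbered 3, 7 with a term for those libraries, and 4 to 7 with 1 library left out, against 4; the 7 came without Wnt1 replicate 3, which added Irak1, Mavs and Nod2. Sensors called higher numbered 26 to 31 with 1 library left out and 20 of the 28 that passed an FPKM filter, against 30 of 42. Their median log2 fold change was 2.06 with library totals, 1.2 with limma on log2(FPKM + 1) and 0.58 with that and no filter, against 1.63; pseudocounts shrink the change of low genes by construction. Over all tested genes, 3239 were higher and 2697 lower; the counts were 6348 and 1288 with library totals, 5144 and 1238 on log2(FPKM + 1), 5139 and 1234 on log2(FPKM + 0.1), 5949 and 1273 on log2(FPKM + 1) with no filter, 4664 and 4432 without both libraries numbered 3, and 4270 lower with a term for them. With 1 library left out, 2681 to 4165 were higher and 1797 to 3977 lower, the lowest without control replicate 2. Signs turned with library totals, to 0.13 (Irak1), 0.059 (Mavs), 0.24 (Ticam1) and 0.071 (Nod2). On the FPKM scale they turned to 0.089 and 0.091 (Irak1), 0.056 and 0.057 (Mavs), 0.22 and 0.24 (Ticam1) and, with no filter, 0.020 (Nod2). The partner Tbk1 (0.03) ran from -0.14 to 0.29 with 1 library left out, and gave -0.069 with the GC offset and -0.0100 with the term for the libraries numbered 3. The cause of these turns was not tested.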
